A study of Mus musculus with 4 samples.

Results

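The Ly49 receptors described here are 6 genes of the mouse Klra family, Klra1, Klra3, Klra4, Klra7, Klra8 and Klra9, chosen by name from the 31053 genes of the count matrices. All 6 were listed in all 4 libraries. They were followed in immune cells from 2 control skins and 2 skin tumors, as the share of cells with at least 1 UMI, the counted mRNA molecule, and as the number of these genes found in the same cell. The control skins were normal skin of uninoculated C57/BL6 mice. The skin tumors grew over 2 weeks after 2323 cells were injected under the flank skin of female and male mice of the same strain aged 8 to 10 weeks. The 2323 line is a single transplantable line derived from a mouse skin tumor, so both tumors are grafts of the same cells. The age of the control mice is not given in the sources used here. All libraries held live cells sorted for the pan-leukocyte protein CD45 and were prepared with the 10x Genomics 3′ kit.

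Ly49 receptors are lectin-like proteins that mouse natural killer (NK) cells use to read MHC class I molecules on other cells. The inhibitory members, here Ly49A (Klra1), Ly49C (Klra3), Ly49G (Klra7) and Ly49I (Klra9), carry a tyrosine motif near the start of the protein that recruits the phosphatase SHP-1, encoded by Ptpn6. The activating members Ly49D (Klra4) and Ly49H (Klra8) lack it and signal through the adaptor DAP12, encoded by Tyrobp. Ly49H is known for binding the m157 protein of mouse cytomegalovirus. Each NK cell switches on its own subset of the genes, so that a population carries many combinations, and some memory-like CD8 T cells and unconventional T cells carry Ly49 receptors as well.

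The 6 genes lie on the minus strand of chromosome 6 in the NK gene complex, within chr6:130043731-130386874 of GRCm38 (the mm10 build). In order along the chromosome they are Klra4 (ENSMUSG00000079852), Klra8 (ENSMUSG00000089727), Klra9 (ENSMUSG00000033024), Klra7 (ENSMUSG00000067599), Klra3 (ENSMUSG00000067591) and Klra1 (ENSMUSG00000079853). The first 36 coding bases of each, from the GENCODE M21 transcripts, are shown because they separate the inhibitory from the activating receptors. Codon 8, in capitals, is the tyrosine codon TAT or TAC of the inhibitory motif in the first 4 lines and the phenylalanine codon TTC in the last 2.
Klra1 (exon 4, chr6:130380627-130380662): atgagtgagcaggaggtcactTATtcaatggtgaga
Klra3 (exon 2, chr6:130335764-130335799): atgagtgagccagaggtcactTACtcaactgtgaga
Klra7 (exon 1, chr6:130231582-130231617): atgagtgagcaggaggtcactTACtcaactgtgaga
Klra9 (exon 2, chr6:130191266-130191301): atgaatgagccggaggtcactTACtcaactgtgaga
Klra4 (exon 2, chr6:130065267-130065302): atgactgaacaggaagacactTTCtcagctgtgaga
Klra8 (exon 2, chr6:130128125-130128160): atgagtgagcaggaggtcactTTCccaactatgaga

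The coding sequences of the 6 genes were 80.7% to 95.9% identical in pairs, and Klra3 and Klra9 were the closest pair. The kit reads the 3′ ends of transcripts. Over the aligned part of the last 600 bases, Klra3 and Klra9 were 98.0% identical, Klra8 and Klra9 97.1%, and Klra3 and Klra8 96.1%. Of the 90-base windows in the last 600 bases of each reference transcript, 12.5% in Klra9, 8.22% in Klra7, 6.85% in Klra3 and 3.33% in Klra8 were found unchanged in another Klra gene or pseudogene. None of the windows of Klra1 and Klra4 was shared. Counts of Klra3, Klra7, Klra8 and Klra9 are therefore less certain than those of Klra1 and Klra4.

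After filtering, the libraries held 2892 and 2994 cells from control skin and 4555 and 1954 cells from skin tumors, at a median of 10275.5 to 13100 UMIs a cell. Any pair of libraries had at most 7 cell barcodes in common. NK cells were gated as CD3-low lymphocytes, with at most 1 UMI of Cd3d, Cd3e and Cd3g together and at least 1 UMI of Ncr1, Klrb1c or Eomes. No Ly49 gene was used in the gate. It held 300 cells, of which 53 and 38 came from control skins 1 and 2 and 139 and 70 from skin tumors 1 and 2. Nkg7, a cytotoxic granule gene that the gate did not use, was found in 69.8% to 86.8% of these cells, the NK transcription factor Tbx21 in 70.0% to 97.4%, and the B cell genes Cd79a and Ms4a1 in none. The female transcript Xist was found in 0 cells of the gate in all 4 libraries and the Y-linked gene Ddx3y in 54.7% to 84.2%, so sex did not differ between the groups by these genes. The myeloid and stromal markers summed to 52.6 and 105 UMIs per 1000000 (CPM) in the control gates and to 152 and 357 CPM in the tumor gates. Between 5 and 11 of those 20 markers were at 0 in each library, and C1qa was found in 5.66% to 20.1% of gate cells. A list of 6 markers of type 2 innate lymphoid cells, Gata3 and Rora among them, summed to 1348 and 1074 CPM in the control gates and to 391 and 326 CPM in the tumor gates, with 1 to 3 of the genes at 0 in each. The part of both lists in the results below was not tested. Median depth was 12451 and 13909 UMIs a cell in the control gates and 7542 and 7852 in the tumor gates. Shares were therefore also computed for each cell thinned to 3000 UMIs, leaving out 0 and 2 shallower cells of the control gates and 15 and 8 of the tumor gates.

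Among lymphocytes, Ly49 genes were concentrated in the NK gate. Pooled over the 4 libraries, 201 of 300 NK gate cells (67.0%) held at least 1 of the 6 genes, against 220 of 3221 CD3+ lymphocytes (6.83%). Most of these NK gate cells, 139 and 70, came from the tumors. Most of the CD3+ lymphocytes, 1191 and 998, came from the control skins. The pooled shares in the NK gate were, from the highest, 43.0% for Klra8, 39.0% for Klra7, 34.3% for Klra4, 26.7% for Klra9, 18.3% for Klra3 and 11.0% for Klra1. The order differed by library. In control skin 1 it was Klra8 and Klra9 at 20.8%, Klra3 at 18.9%, Klra7 at 15.1%, Klra4 at 11.3% and Klra1 at 5.66%. In 3559 macrophages, which were deeper at a median of 19729 UMIs, Klra4 was found in 0.281% and Klra8 in 0.337%. Klra2, a family gene outside the 6, was found in 67.4% of these macrophages. Klra4 was not confined to the NK gate. It was found in 60 of 163 cells (36.8%) with 5 or more UMIs of Col3a1, Col6a1 and Col6a2, at a median of 34096 UMIs. Klra8 was found in 0 of these. Klra3 was found in 2.30% to 6.65% of macrophages by library, mostly as 1 UMI. Whether these were stray counts or expression by macrophages was not tested, so low counts of Klra3 outside the NK gate are hard to read. In macrophages 9.26% of genes passed the test of tumor against control and 3.11% as higher, and no member did.

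**Figure D1:**
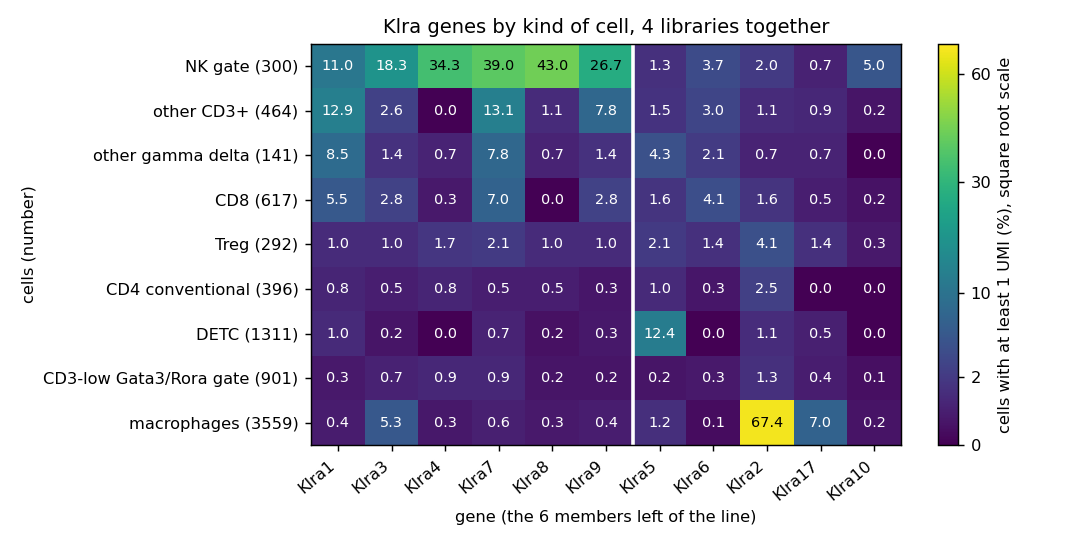
Percent of cells with at least 1 UMI of each Klra gene (columns, the 6 members left of the line) in each kind of cell (rows), pooled over the 4 libraries at full depth. Klra8 was found in 43.0% and Klra4 in 34.3% of the NK gate and in at most 1.71% of each other row, and Klra2 in 67.4% of macrophages. Cells with collagen UMIs, which held Klra4 in 36.8%, are not among the rows.

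The UMIs of the NK gate were tested against those of all other lymphocytes of the same library, with the library as a block. In control skins 614 of 1600 and 674 of 1295 of the others were dendritic epidermal T cells. In tumors these were 2 of 850 and 21 of 377. CD3-low cells gated on Gata3, Rora and related genes were also among the others. The part of this mix in the differences was not tested. Of 10342 genes, 5.5% passed the edgeR test at an adjusted p of 0.05 and 2.33% passed as higher in the NK gate. Among the 6 members, 5 passed, all as higher. The activating pair had the largest log2 differences, at 7.39 (SE 0.93, adjusted p = 0.00567) for Klra4 and 6.79 (SE 0.29, adjusted p = 0.000139) for Klra8. The inhibitory genes followed at 4.53 for Klra3 (adjusted p = 0.00314), 4.41 for Klra9 (adjusted p = 0.00214) and 3.28 for Klra7 (adjusted p = 0.00544). Klra1 stood at 1.44 (SE 0.48, adjusted p = 0.151) and did not pass. Without the library block, Klra4 had an adjusted p of 0.0938. Against the CD3+ gates alone, 5 members also passed as higher, where 3.73% of genes passed. Of 16 tested genes of an NK gene complex list, 11 passed as higher, 1 of which, Klrb1c, was used in the gate. Among the others was Klre1, a lectin-like receptor gene, at 4.0 (adjusted p = 0.00317), and no gene of the list passed as lower. Of 12 genes for Ly49 signalling, Tyrobp was higher at 3.44 (adjusted p = 0.000675), as was Plcg2 at 1.76 (adjusted p = 0.0281), and Cd247, a T cell receptor chain, was lower at -1.73 (adjusted p = 0.0416).

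The NK gates of skin tumors held more of both activating receptors than those of control skins. Klra4 was found in 11.3% of gate cells in control skin 1, 18.4% in control skin 2, 38.8% in skin tumor 1 and 51.4% in skin tumor 2. At 3000 UMIs a cell its share was 12.6% ± 3.27 (SD, n = 2) in control skin and 42.2% ± 6.18 (SD, n = 2) in tumors. Its level over the summed gate was 111 and 124 CPM in the controls and 538 and 521 CPM in the tumors. The tumors lay far above the controls on all 3 scales. Klra8 was found in 20.8% and 21.1% of control gate cells and in 51.1% and 55.7% of tumor gate cells. Thinned shares of Klra8 were 17.6% ± 0.0561 (SD, n = 2) and 45.9% ± 0.0852 (SD, n = 2). Its level rose from 123 and 118 CPM to 468 and 391 CPM, again without overlap of the groups.

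The test of tumor against control used the UMIs summed over the gate in each library. Of 7164 genes, 167 (2.33%) passed in edgeR at an adjusted p of 0.05 and 67 (0.935%) passed as higher in tumors. Among the 6 Ly49 genes, 2 passed, both as higher, and these were the activating pair. Klra4 rose by 2.12 on the log2 scale (SE 0.23, 4.36-fold, adjusted p = 0.00432). Klra8 rose by 1.79 (SE 0.24, 3.45-fold, adjusted p = 0.0126). Both calls were lost when either control library was left out, with 1 control library then assumed to vary like the tumors. The log2 differences stayed between 2.01 and 2.19 for Klra4 and between 1.55 and 1.94 for Klra8 over the 4 libraries left out in turn. Without control skin 1 the adjusted p was 0.212 for Klra4 and 0.285 for Klra8, and without control skin 2 it was 0.132 and 0.206. The whole table fell to 12 and 3 called genes in these fits.

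The inhibitory genes did not pass the edgeR test, and Klra7 alone of them passed in DESeq2 (adjusted p = 0.0271). Klra7 was found in 15.1% and 28.9% of control gate cells and in 43.2% and 54.3% of tumor gate cells, with a log2 difference of 1.36 (SE 0.30, adjusted p = 0.0556). With the replicate number as a block its adjusted p was 0.0161, and that of Klra1 was 0.0331. Klra1 was found in 5.66% and 5.26% of control gate cells and in 13.7% and 12.9% of tumor gate cells, with a log2 difference of 1.68 (SE 0.44, adjusted p = 0.088). Klra9 was found in 20.8% and 15.8% of control gate cells and in 26.6% and 37.1% of tumor gate cells, with a log2 difference of 0.79 (SE 0.32, adjusted p = 0.270). Klra3 was the gene whose shares overlapped between the groups, at 18.9% and 15.8% in control skins and 12.9% and 30.0% in tumors. Its log2 difference was 1.03 (SE 0.36, adjusted p = 0.216). The median log2 difference of the 6 genes was 1.52, beside 0.03 over all genes tested. All 6 had a higher CPM in both tumors than in both controls, as did 27.2% of all genes tested.

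**Figure D2:**
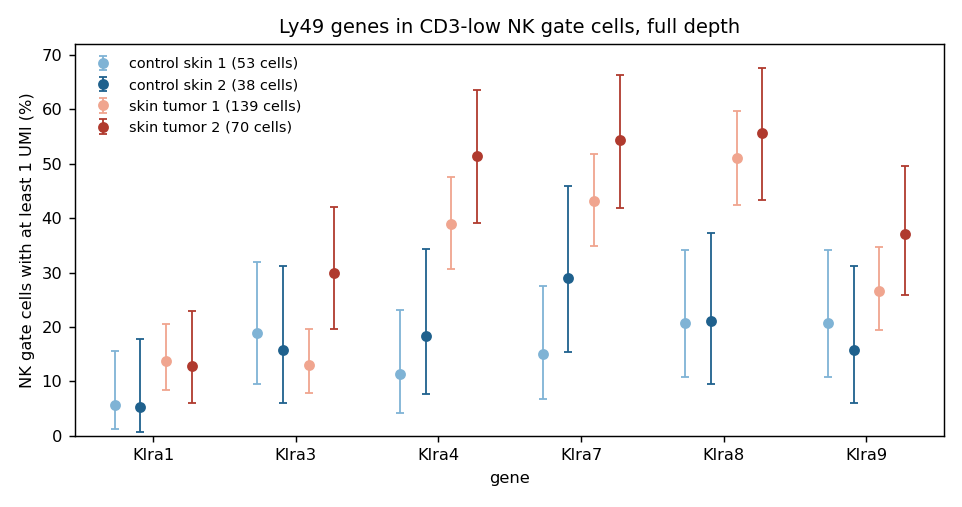
Percent of NK gate cells with at least 1 UMI of each Ly49 gene, 1 point per library (2 control skins, 2 skin tumors). Bars are exact 95% binomial intervals that cover counting error only. The tumor points of Klra4 and Klra8 lie between 38.8% and 55.7%, above the control points at 11.3% to 21.1%, and the points of Klra3 overlap.

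Shares over several genes together also lay higher in the tumors. At least 1 of the 6 genes was found in 39.6% and 55.3% of control gate cells and in 71.2% and 85.7% of tumor gate cells. At 3000 UMIs a cell these shares were 39.8% ± 10.6 (SD, n = 2) and 76.6% ± 4.67 (SD, n = 2). Either activating gene was found in 20.8% and 26.3% of control cells and in 58.3% and 74.3% of tumor cells, and any inhibitory gene in 37.7% and 50% against 64.0% and 77.1%. These shares were not tested, since an exact permutation of 2 libraries against 2 cannot go below p = 0.333. When at least 2 of the 3 gate genes were required, the tumor minus control difference at 3000 UMIs, 36.8 points, was 21.5 points.

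The number of UMIs in a positive cell differed between the genes. A cell with Klra4 held a median of 10 UMIs of it, and 75.7% of such cells held 5 or more. The medians were 6 UMIs for Klra8, 5 for Klra1 and Klra7, 4 for Klra3 and 3 for Klra9. Klra3 and Klra9 were also the least often seen at 5 or more UMIs, in 25.5% and 38.8% of their positive cells. The 3′ kit counts 1 tag per molecule, so these UMI numbers are not scaled to length.

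Most Ly49-positive tumor cells held several of the genes. Cells with at least 2 of the 6 made up 20.8% and 28.9% of the control gates and 60.4% and 68.6% of the tumor gates, or 21.2% ± 2.84 (SD, n = 2) and 58.3% ± 4.33 (SD, n = 2) at 3000 UMIs. At least 3 genes were found in 17.0% and 15.8% of control cells and in 39.6% and 52.9% of tumor cells. Of the control cells, 32 of 53 and 17 of 38 held none, and of the tumor cells, 40 of 139 and 10 of 70. Exactly 1 gene was found in 10 and 10 control cells and in 15 and 12 tumor cells. Up to 5 genes were found in a cell, in 2 cells of control skin 1, 3 of skin tumor 1 and 4 of skin tumor 2, and no cell held all 6.

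**Figure D3:**
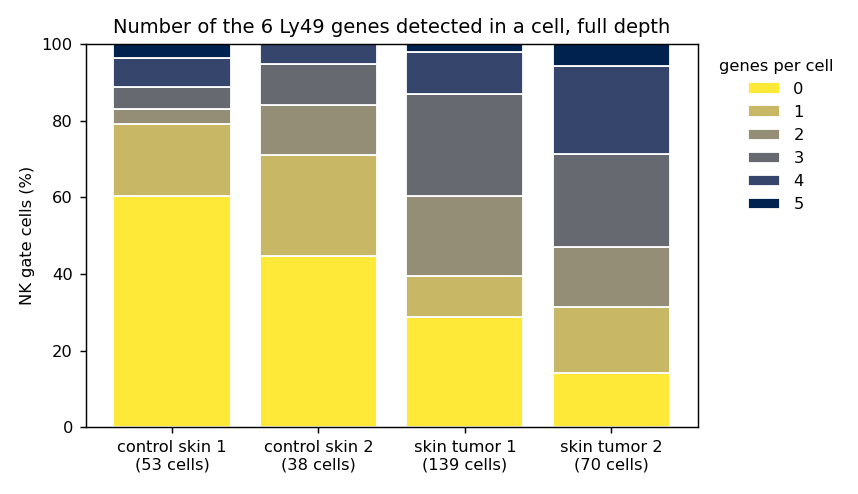
Percent of NK gate cells in each library that held 0, 1, 2, 3, 4 or 5 of the 6 Ly49 genes at full depth, as stacked bars. The cells with none make up 60.4% of control skin 1 and 14.3% of skin tumor 2.

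Combinations were diverse. The 201 positive cells of the NK gate fell into 44 combinations of the 6 genes. The most frequent were Klra4 with Klra7 and Klra8 in 18 cells, Klra9 alone in 14, Klra7 with Klra8 in 12 and Klra7 alone in 11. For each pair of genes the cells holding both were set beside the product of the gene shares in the same library, as a description. In the NK gate 14 of 15 pairs were found together more often than the product, at a ratio of 0.993 to 1.55 with a median of 1.40. The activating pair had the highest ratio, with Klra4 and Klra8 together in 78 cells against 50.4 from the product. Of the cells with Klra4, 75.7% also held Klra8. After thinning to 3000 UMIs, 13 of the 15 pairs lay above the product. A gate that mixes Ly49-rich and Ly49-poor cells can raise such a ratio by itself. Within Eomes-positive gate cells 12 of 15 pairs lay above the product, at a ratio of 0.871 to 1.46. The part of reads assigned to the wrong Klra gene in these ratios was not tested.

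Eomes, the transcription factor of conventional NK cells, split the gate in control skin. The gate cells of control skins were Eomes-positive in 41.5% and 57.9%, and those of tumors in 82.7% and 85.7%. Eomes is itself a gate gene, so Eomes-negative cells entered the gate by Ncr1 or Klrb1c. Ncr1 was found in 90.6% and 78.9% of control gate cells and in 51.8% and 61.4% of tumor gate cells. The part of the gate genes in the Eomes shares was not tested. Among Eomes-negative cells of the control skins, 2 of 31 and 1 of 16 held a Ly49 gene (6.45% and 6.25%), against 15 of 24 and 7 of 10 in the tumors (62.5% and 70.0%). The Eomes-negative tumor cells were shallower, with a median of 6895.5 and 5392.5 UMIs against 13225 and 14470.5 in the controls. A missed Eomes transcript in these cells was not tested. Thinned to 3000 UMIs, the Eomes-negative shares were 5.78% and 1.25% in the controls and 59.0% and 66.0% in the tumors. Thinning left out 2 shallower cells of control skin 2 and 4 of skin tumor 2, where 6 cells remained. Eomes status was set at full depth, so thinning did not match the chance of a missed Eomes transcript between the groups.

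Among Eomes-positive cells the groups lay closer. At full depth 19 of 22 and 20 of 22 control cells held a Ly49 gene (86.4% and 90.9%), against 84 of 115 and 53 of 60 tumor cells (73.0% and 88.3%). At 3000 UMIs, which left out 15 and 4 shallower tumor cells and no control cell, a Ly49 gene was found in 69.7% and 76.6% of control cells and in 76.8% and 81.4% of tumor cells. The order of the groups differed between full depth and 3000 UMIs. At 3000 UMIs Klra4 or Klra8 was found in 43.0% and 36.9% of control cells and in 59.4% and 67.7% of tumor cells. Of 6163 genes tested within Eomes-positive cells, 19 (0.308%) passed the edgeR test and 12 (0.195%) as higher in tumors. None of the 6 Ly49 genes passed in edgeR or DESeq2, where 643 and 314 genes had an unadjusted p under 0.05 and DESeq2 called 46 genes. The log2 difference was 1.12 (SE 0.26, adjusted p = 0.155) for Klra4 and 0.77 (adjusted p = 0.387) for Klra8, and those of Klra3 and Klra9 were -0.06 and -0.36. The whole tumor gate had higher Klra4 and Klra8 and also a larger Eomes-positive share. Both genes were higher in Eomes-negative tumor cells too. There Klra4 stood at 5.03 and 0 CPM in the controls and at 281 and 638 CPM in the tumors. Klra8 stood there at 12.6 and 0 CPM and at 308 and 581 CPM. These levels rest on 31 and 16 control cells and 24 and 10 tumor cells. The part of the Eomes share in the gate-wide difference was not tested, nor was the difference between the Eomes groups.

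**Figure D4:**
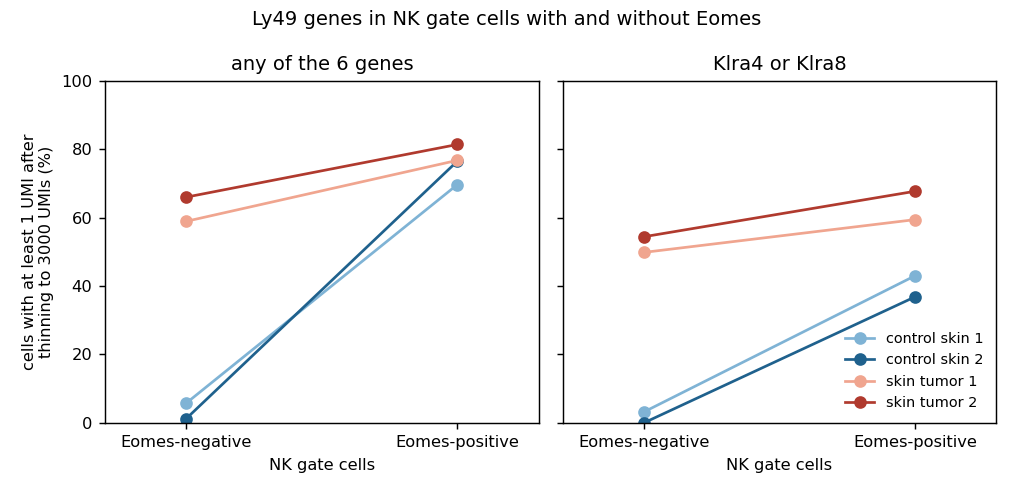
Expected percent of NK gate cells with any of the 6 Ly49 genes (left) and with Klra4 or Klra8 (right) at 3000 UMIs a cell, in Eomes-negative and Eomes-positive cells, 1 point per library. The control points of Eomes-negative cells lie at 5.78% and 1.25% for any gene, and the Eomes-positive points of all 4 libraries lie between 69.7% and 81.4%. Eomes status was set at full depth, and the Eomes-negative points of skin tumor 2 rest on 6 cells.

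Genes that separate conventional NK cells from ILC1, their tissue-resident relatives, changed in the same gate. Among 6 tested conventional NK genes, 3 were higher in tumors, among them the integrin Itga2 by 1.72 on the log2 scale (adjusted p = 0.0184) and the transcription factor Zeb2 by 1.12 (adjusted p = 0.048). Among 6 tested ILC1 or resident genes, 3 were lower: the death ligand gene Tnfsf10 by -3.08 (adjusted p = 0.00221), the integrin Itga1 by -2.55 (adjusted p = 0.0153) and the cytokine receptor Il7r by -3.64 (adjusted p = 0.0157). The lists' median log2 differences were 1.27 and -2.52, beside 0.03 over all genes. These lists were chosen with earlier results of the same cells known and are no independent evidence of direction. Cells with Itga1 numbered only 26 and 19 in the controls and 13 and 6 in the tumors. Of these, 38.5% and 36.8% in the controls and 69.2% and 83.3% in the tumors held a Ly49 gene. Cells without Itga1 numbered 27 and 19 in the controls and 126 and 64 in the tumors. Of those, 40.7% and 73.7% in the controls and 71.4% and 85.9% in the tumors held one.

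Other genes of the NK gene complex and of Ly49 signalling were set beside the 2.33% of all genes that passed between tumor and control in the NK gate. Of 14 tested genes of the NK gene complex list, 1 passed: Klrc1, the inhibitory receptor NKG2A, was lower in tumors by -1.70 (SE 0.22, adjusted p = 0.0115). Klrk1, the activating receptor NKG2D, stood at -0.10 (adjusted p = 0.920), and Klre1 at 1.09 (adjusted p = 0.0555). The list's median was -0.11. None of 12 signalling genes passed, with a median of -0.26. Among them, the partner of the activating receptors, Tyrobp, stood at -0.29 (adjusted p = 0.685), and that of the inhibitory receptors, Ptpn6, at -0.48 (adjusted p = 0.607). The MHC class I ligand genes of the gate cells themselves did not pass, at 0.07 for H2-K1, -0.26 for H2-D1 and 0.02 for B2m. By comparison, 1137 of the 7164 genes had an unadjusted p under 0.05.

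Genes with the pattern most like that of the summed Ly49 UMIs were ranked over 29 sums, 1 for each lymphocyte gate and library with at least 20 cells, among 8166 genes. Apart from members, the 5 genes with the highest Pearson correlation were Samd3 (r = 0.883), the kinase gene Txk (0.832), Klrb1c (0.831), Klre1 (0.818) and the kinase-like receptor gene Styk1 (0.80). The sums of a library share cells of the same sort, 4 of the 29 were NK gates, and Klrb1c was used in the gate.

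Outside the NK gate Ly49 genes were found in T cells, and there mostly the inhibitory genes. Of 3221 CD3+ lymphocytes, 216 (6.71%) held Klra1, Klra3, Klra7 or Klra9 and 18 (0.559%) held Klra4 or Klra8. Cells left by the Treg, CD8, conventional CD4 and γδ gates are called other CD3+ cells. They held no Foxp3, and either both Cd4 and Cd8 or neither, the latter with fewer than 2 UMIs of Trdc. Of γδ T cells other than dendritic epidermal T cells (DETC), 12.8% held any of the 6 genes. The shares were 19.6% in the other CD3+ cells and 11.5% in CD8 T cells. They were 3.77% in Treg, 2.02% in conventional CD4 T cells, 1.60% in DETC and 2.55% in CD3-low cells gated on Gata3, Rora and related genes. These last 4 shares lie under the 6.6% of macrophages, where Klra3 made up most of the signal. Depth was not matched here, at a median of 19729 UMIs in macrophages and 5349 to 10634 in these 4 gates. By single gene the order differed. Klra4 was found in 1.71% of Treg, 0.758% of conventional CD4 T cells, 0% of DETC and 0.888% of the Gata3 and Rora cells, against 0.281% of macrophages. Klra3 was the sole member in 22 of the 220 CD3+ cells and in 12 of the 71 CD8 T cells with a Ly49 gene. Klra8 was found in 0 of 617 CD8 T cells, which allows a share of up to 0.486%. Klra4 was found in 0 of 464 of the other CD3+ cells, which allows up to 0.647%.

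In CD8 T cells the detected genes were mostly Klra7 and Klra1. Klra7 was found in 5.79% and 6.25% of CD8 T cells in control skins and in 6.37% and 16.3% in tumors, and Klra1 in 3.68% and 4.69% and in 5.41% and 14.3%. Skin tumor 2 stood above the other 3 libraries for both, with 49 CD8 T cells beside 190 and 64 in the controls and 314 in skin tumor 1. Of 9252 genes 13.9% passed the test of tumor against control in CD8 T cells, and neither member did: Klra7 stood at 0.10 on the log2 scale (adjusted p = 0.908) and Klra1 at -0.09 (adjusted p = 0.929). In the other CD3+ cells, Klra1 was found in 15.3%, 13.5%, 12.4% and 2.38% of control skin 1 and 2 and tumor 1 and 2. Klra7 was found there in 10.6%, 13.5%, 18.2% and 7.14%, and Klra9 in 9.52%, 7.29%, 7.30% and 2.38%. Skin tumor 2 was the lowest library for all 3 genes. It held 42 of these cells, beside 189 and 96 in the controls and 137 in skin tumor 1, so its shares rest on few positive cells. None of them passed where 10.5% of genes did, with adjusted p from 0.109 for Klra1 to 0.95 for Klra7. In conventional CD4 T cells, where 12.4% of genes passed, no member was frequent enough to be tested. In γδ T cells no gene of 10800 passed in edgeR (0%), with 1256 at an unadjusted p under 0.05. DESeq2 called 320 genes there (2.96%) and no member. The control gates held 614 and 674 DETC beside 48 and 68 other γδ T cells. Those of tumors 1 and 2 held 2 and 21 DETC beside 19 and 6. The part of this mix in the γδ comparison was not tested. The limit on myeloid, mast and stromal markers left out 215 and 292 cells with at least 2 CD3 UMIs in control skins 1 and 2. In skin tumors 1 and 2 it left out 10 and 155 such cells. The part of these losses in the T cell gates was not tested.

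One member passed in a T cell gate, and it rested on single cells. Klra7 was lower in tumor Treg (log2 difference -3.50, SE 0.51, adjusted p = 0.0145, where 7.21% of genes passed and 4.62% as lower). It was the only 1 of the 6 members tested there, kept by the filter on low counts through its UMIs in the control libraries. With no filter 3 of 6 members passed, 2 of them as higher in tumors, where 8.69% of genes passed. In control Treg 1 of 49 and 1 of 47 cells held it, with 22 and 29 UMIs, and in tumor Treg 2 of 121 and 2 of 75 cells held it, with 5 and 3 UMIs in all. The shares of positive cells were 2.04%, 2.13%, 1.65% and 2.67%, so the difference lay in the UMIs of 1 cell in each control library. Without control skin 2 the adjusted p was 0.116.

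Ly49 genes were more frequent in T cells that carried a gene of the NK gate. Of the 220 CD3+ cells with a Ly49 gene, 91 held Ncr1, Klrb1c or Eomes and 129 held none of them. Among CD3+ lymphocytes with a UMI of Ncr1, Klrb1c or Eomes, a Ly49 gene was found in 26.8%, 36.4%, 21.3% and 35.9% of cells in control skin 1 and 2 and tumor 1 and 2. Without those genes the shares were 4.76%, 2.49%, 7.82% and 4.63%. The first were higher in 4 of 4 libraries, with a deeper median of 14034 UMIs against 9545.5 pooled. The most frequent combination in CD3+ cells was Klra1 with Klra7, in 49 cells, ahead of Klra7 alone in 38 and Klra1 alone in 30. These genes were found together in 80 cells against 5.41 from the product of their shares, and 64.0% of the cells with Klra1 held Klra7. The 15 pairs had ratios of 2.18 to 74.9 there, over gates that differ in their Ly49 share. Both ends of this range rest on few cells. Klra1 and Klra4 were found together in 1 cell against 0.458 from the product, and Klra4 and Klra8 in 6 cells against 0.080.

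**Figure D5:**
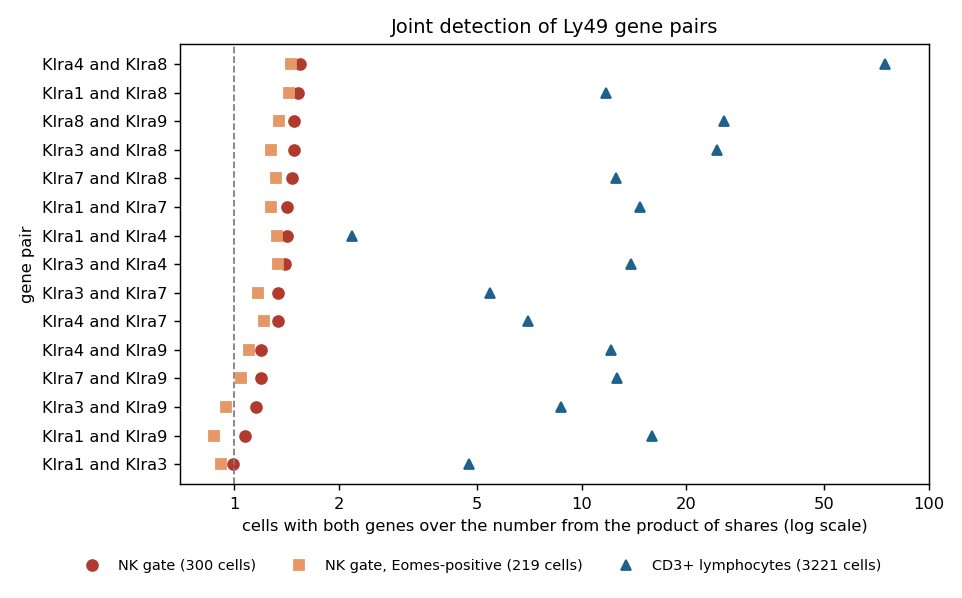
Cells with both genes of a pair divided by the number from the product of the gene shares within each library (log axis), for 15 pairs in 300 NK gate cells, 219 Eomes-positive NK gate cells and 3221 CD3+ lymphocytes. NK gate ratios lie between 0.993 and 1.55 and those of CD3+ lymphocytes between 2.18, from 1 cell with both genes, and 74.9, from 6 cells.

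Genes chosen after their values were seen set the Ly49-positive T cells apart from others of the same gate. Among CD8 T cells, the transcription factor Ikzf2 (Helios) was found in 88.7% of 71 Ly49-positive cells and 54.2% of 546 others. The chemokine Xcl1 was found in 70.4% against 35.5%, the signalling adaptor Fcer1g in 54.9% against 24.2% and Klre1 in 67.6% against 17.6%. Among the other CD3+ cells, Ikzf2 was found in 93.4% of 91 Ly49-positive cells and 51.7% of 373 negative ones. Xcl1 was found there in 82.4% against 18.0% and Fcer1g in 78.0% against 27.1%. These genes were higher in the Ly49-positive cells of 4 of 4 libraries in both gates. They were chosen by these same values, so this count is a description only. Control skin 2 held 5 Ly49-positive CD8 T cells, and skin tumor 2 held 5 Ly49-positive cells among the other CD3+ cells. Depth moved the same way, with medians of 12948 against 11336 UMIs and 9161 against 5981 UMIs. Cd5, a T cell inhibitory receptor, went the other way in 4 of 4 libraries, at 59.2% against 67.8% and 17.6% against 34.0%.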

How the data were processed

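Sorted CD45+ skin cells were analysed in 4 droplet libraries, 2 per group. Per the labels and processing notes, the authors made the deposited UMI count matrices with Cell Ranger 7.1.0 (7.0.1 in the file header) on mm10; whether intronic reads were counted is not given in the sources used here. The study's cell filters were applied (at least 100 genes and 1000 UMIs, at most 15% mitochondrial UMIs, a log10 genes to log10 UMIs ratio of at least 0.8), and the top 1% of cells by Scrublet score per 1000 cells in a library were removed as doublets. Lymphocytes held at most 20 UMIs per 10000 from 20 myeloid, mast and stromal markers. Macrophages were above that limit with at least 5 C1q UMIs. CD3-low cells with an NK gate gene that lay over the limit numbered 4 and 8 in control skins 1 and 2. In skin tumors 1 and 2 they numbered 35 and 13. T cell gates needed at least 2 CD3 UMIs. Counts were summed per library and gate and tested with edgeR 4.0.16 (TMM, filterByExpr, quasi-likelihood, Benjamini-Hochberg over all genes tested), with DESeq2 1.42.0 as an alternative. The study tested cells by rank sums; libraries, from 2 tumors and 2 control skins, were used here as replicates, so p-values measure the spread between these libraries. Thinned shares are hypergeometric expectations. Intervals are Clopper-Pearson at 95%, and a count of 0 allows 3 counts; both cover counting error only. Total counts per library were 34893543 to 73904272 UMIs. On simulated counts for the NK gate, 83% of 200 genes changed by 2 on the log2 scale were recovered among 6809 genes, and 18 unchanged genes were called. The members, lists and gates were chosen with earlier results of these data known. Named genes were the 6 members, fixed lists and the 5 genes most correlated with the summed members, on log2(CPM + 10). The full genotype behind the tumor line and some list genes are not reported here.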

Additional observations from a re-analysis of the deposited data

Results flagged for a closer look

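Klra4 was found in cells outside the lymphocytes. Of the cells with 5 or more UMIs of Col3a1, Col6a1 and Col6a2, which passed the sort for CD45 all the same, 19 of 55 in skin tumor 1 and 41 of 102 in skin tumor 2 held Klra4, a mean of 37.4%, against 0 of 3 in each control skin. Up to 9 and 13 UMIs of Klra4 were counted in such a cell, and their median depth was 34096 UMIs. Klra8 was found in 0 of 163 such cells, which allows a share of up to 1.84%. The NK gate held 1 of these cells from control skin 2 and 4 from skin tumor 2.

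Klra3 was found in a mean of 5.56% of tumor macrophages and in 3.46% and 2.30% of those of the control skins, at a median of 1 to 2 UMIs a positive cell. Its log2 difference was 0.80 in edgeR (adjusted p = 0.310).

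Klra2, a family member outside the 6 genes, was found in a mean of 75.7% of tumor macrophages, at 82.0% and 69.4% by library, and in 18.6% and 26.1% of control macrophages. It rose by 2.80 on the log2 scale in edgeR (SE 0.45, adjusted p = 0.0354), where 9.26% of 13733 genes passed and 3.11% as higher. The call was lost with the replicate block (adjusted p = 0.0804), without control skin 1 (0.183) and without control skin 2 (0.114). These values come from cells outside the lymphocyte gates.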

How the results depend on the processing

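In the NK gate the estimates of all 6 Ly49 genes were positive under each of 15 alternatives. Klra4 and Klra8 passed under 13, Klra7 under 8, Klra1 under 5, Klra3 under 1 and Klra9 under none (adjusted p from 0.0856). The count of members called, 2, became 4 with no filter on low counts, 4 with the replicate block, 4 with a myeloid limit of 5 and 0 to 4 when a library was left out. It was also 4 without the collagen cells, an alternative chosen after seeing the data, as were the tests of macrophages, of CD3+ gates alone and of the other CD3+ cells. All genes called numbered 3 to 767 over these alternatives. The replicate block called 374 genes, or 5.22% of those tested. No filter on low counts called 4.84%, the myeloid limit of 5 called 4.97% and leaving out the collagen cells called 6.63%. The main fit called 2.33%. Same-numbered libraries deviated with r = 0.176 over 7164 genes and 2 pairs, and the labels name nothing shared by a number, so they were treated as unpaired. Against other lymphocytes, 5 members passed under each leave-one-out fit. The whole table's calls there fell from 569 to 213 without the library block and to 358 against CD3+ gates alone. In the CD8, conventional CD4, Treg and γδ gates together the 1 call became 7 with no filter. Of all genes, 12.3%, 10.7%, 8.69% and 0.177% then passed in turn, beside 13.9%, 12.4%, 7.21% and 0% in the main fits. The count of members also moved when a tumor library was left out. In the other CD3+ cells 0 members passed, and 1 did with no filter and with the replicate block, where 7.66% and 11.3% of genes passed. That count also moved without control skin 2 and without skin tumor 1. In Eomes-positive cells Klra4 passed with no filter (adjusted p = 0.0178) and without skin tumor 2 (0.0262).

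The tumor minus control difference in cells with any of the 6 genes was 36.8 points (pooled within-group SD 8.18). It was 21.5 points when at least 2 gate genes were required and 29.4 to 44.3 when a library was left out. For cells with at least 2 genes the difference was 37.1 points (pooled within-group SD 3.66). It was 21.2 at 1000 UMIs, 31.2 with at least 2 gate genes and 34.0 to 40.2 when a library was left out. The share with any of the 6 genes in Eomes-positive minus Eomes-negative cells averaged 43.1 points over the libraries of both groups (SD 31.0). This mean was 32.4 to 52.4 when a library was left out. Each control library had a wider gap than each tumor library, so the mean describes neither group. In all, 243 of 315 alternative values kept their direction and side of the threshold or moved little. Those that changed sign were estimates that had not passed in either fit. In Eomes-positive cells Klra3 (-0.06) ranged from -0.48 to 0.51 and Klra9 (-0.36) from -0.83 to 0.31 when a library was left out, above 0 without control skin 1 and, for Klra3, without skin tumor 1. In CD8 T cells Klra1 (-0.09) ranged from -0.58 to 1.007 and Klra7 (0.10) from -0.36 to 1.006, and Klra1 stood at 0.0072 in DESeq2. The cause of the other changes was not tested. The 53 and 38 control gate cells limit the precision of every share.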

Other observations

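Other Klra genes followed other cells. Klra5 was found in 163 of 1311 DETC (12.4%), the γδ T cells of the epidermis, and in 1.33% of NK gate cells. The 5 Klra genes outside the 6 were too low in the NK gate to be tested there. Klra10 was found in 6.10% ± 2.57 (SD, n = 2) of tumor gate cells and in 1.32% ± 1.86 (SD, n = 2) of control gate cells. Of its 90-base windows near the 3′ end, 12.5% were shared with Klra3, Klra9 or a pseudogene, so its counts are uncertain.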
